A study of Mus musculus with 15 samples.

Results

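The insulin and insulin-like growth factor (IGF) system of the choroid plexus was described by 10 genes chosen by name: the ligands Ins1, Ins2, Igf1 and Igf2, the receptors Insr, Igf1r and Igf2r, and the binding proteins Igfbp2, Igfbp4 and Igfbp7. Where a gene had several probe sets, its brightest by mean signal was taken. This gave values for 9 of the 10 genes, among 19938 named genes in all; no probe set used here carries the name Ins1. RNA was taken from the choroid plexus, the tissue that secretes cerebrospinal fluid, of 15 mice, each measured on 1 whole-transcript Affymetrix array. There were 5 wild-type mice, 5 heterozygous mice and 5 null (knockout) mice for Add1, the gene of the membrane skeleton protein alpha-adducin. All were C57BL/6J and labelled male, and all were 3 weeks old, an age that the design text places before hydrocephalus develops. No source used here gives the part of Add1 that was deleted, and the labels name no cell type in which the deletion was made.

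Insulin and IGF1 act through the tyrosine kinase receptors INSR and IGF1R, which recruit the IRS adaptors, PI3-kinase and AKT and thereby hold FOXO transcription factors out of the nucleus. IGF2 binds the same receptors, while IGF2R, also the receptor for mannose 6-phosphate on lysosomal enzymes, has no kinase and carries IGF2 to lysosomes. IGF binding proteins hold the ligands in the extracellular fluid. The choroid plexus is known as a source of IGF2 and IGFBP2 in cerebrospinal fluid, and insulin transcripts have been described in its epithelium.

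All values are log2 expression levels, so a difference of 1 is a doubling of signal, and a gene was tested if it exceeded 5.31, the median of all gene values, in at least 5 arrays. All 9 measured members were among the 10109 genes tested. Genotypes were compared with limma over all 15 arrays, and a gene was called if its p-value, adjusted over all tested genes by the Benjamini-Hochberg method, was under 0.05. In RNA from whole tissue, fewer cells of a type and less RNA per cell cannot be told apart. Levels of different genes come from different probes and were not set against each other.

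A pair of null arrays went against the label male. Xist, the RNA of the inactive X chromosome, reached 9.09 and 9.69 in null arrays 1 and 5 against at most 3.88 in the other 13, and the Y-linked Kdm5d read 4.27 and 4.10 there and at least 6.97 elsewhere. The members' differences from wild type, and those of the called pathway genes, are therefore given with and without these arrays. Add1 itself read between 7.78 and 8.04 in wild-type, 7.68 and 7.92 in heterozygous and 7.41 and 7.76 in null mice (null minus wild type -0.31, SE 0.0791, limma adjusted p = 0.0241). Add1 was no longer called when wild-type array 1 (-0.30) or 2 (-0.28) or null array 4 (-0.28) was left out, or null arrays 1 and 5 (-0.26, adjusted p = 0.10). The call was also lost in a fit of wild-type and null arrays only and with replicate numbers as a block. It was lost as well with Xist signal or the label number described below as a covariate. Against heterozygous mice Add1 differed by -0.16 in null mice and was not called (limma adjusted p = 0.224). Among choroid plexus epithelial markers 9 of 10 were measured, all above the filter, and their summed linear signal ranged from 27822 to 30046 in wild-type, from 27267 to 29418 in heterozygous and from 27016 to 29357 in null arrays; in null mice 1 of them rose against wild type (Aqp1) and 2 fell (Kcne2 and Kcnj13). Heterozygous array 1 stood apart in neural markers, with a summed signal of 8 neuron markers of 1285 against at most 422 in any other array; without it the same 4 members described below were called.

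In null choroid plexus the receptors for insulin and IGF1 were higher and the insulin gene Ins2 and the IGF2 receptor were lower, while no IGF or binding protein gene was called. These calls were not equally firm. Against wild type that of Igf2r stood in 15 of 28 alternative settings, and those of Igf2r and Insr were lost without null arrays 1 and 5. Of the 9 members 2 rose against wild type (Insr and Igf1r; background 4.17% of all tested genes), 2 fell (Ins2 and Igf2r; background 3.54%) and 5 were not called. The same 4 genes were called in the same directions against heterozygous mice (background 4.28% higher and 3.54% lower), a comparison that uses the same null arrays. The 4 called members are 44.4% of those measured, against 7.72% of all tested genes called between null and wild type and 7.82% between null and heterozygous. The members were chosen with earlier results of these data known, so this share is no test of the system against other genes. Of 51 other pathway genes tested 5.88% were called against wild type. Fewer members were called without null arrays 1 and 5 or with the label number as a covariate. Of all genes called against wild type 422 were higher and 358 lower, or 261 and 557 after each array was centred on its median, a setting under which 2 members still rose and 2 fell. The median difference of the members from wild type was -0.17, against 0.01 for all tested genes. Between heterozygous and wild-type mice limma called 0 of 9 members and 0% of all genes, with 0 members and 381 genes at an unadjusted p under 0.05. The null arrays did not overlap with the wild-type arrays in 3 members, 2 higher and 1 lower, against 5.95% of all genes (3.45% higher and 2.49% lower). They did not overlap with the heterozygous arrays in 3 members, again 2 higher and 1 lower, against 5.76% (3.03% and 2.73%). Heterozygous and wild-type arrays overlapped in all 9, where 0.801% of all genes did not (0.406% higher and 0.396% lower).

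**Figure D1:**
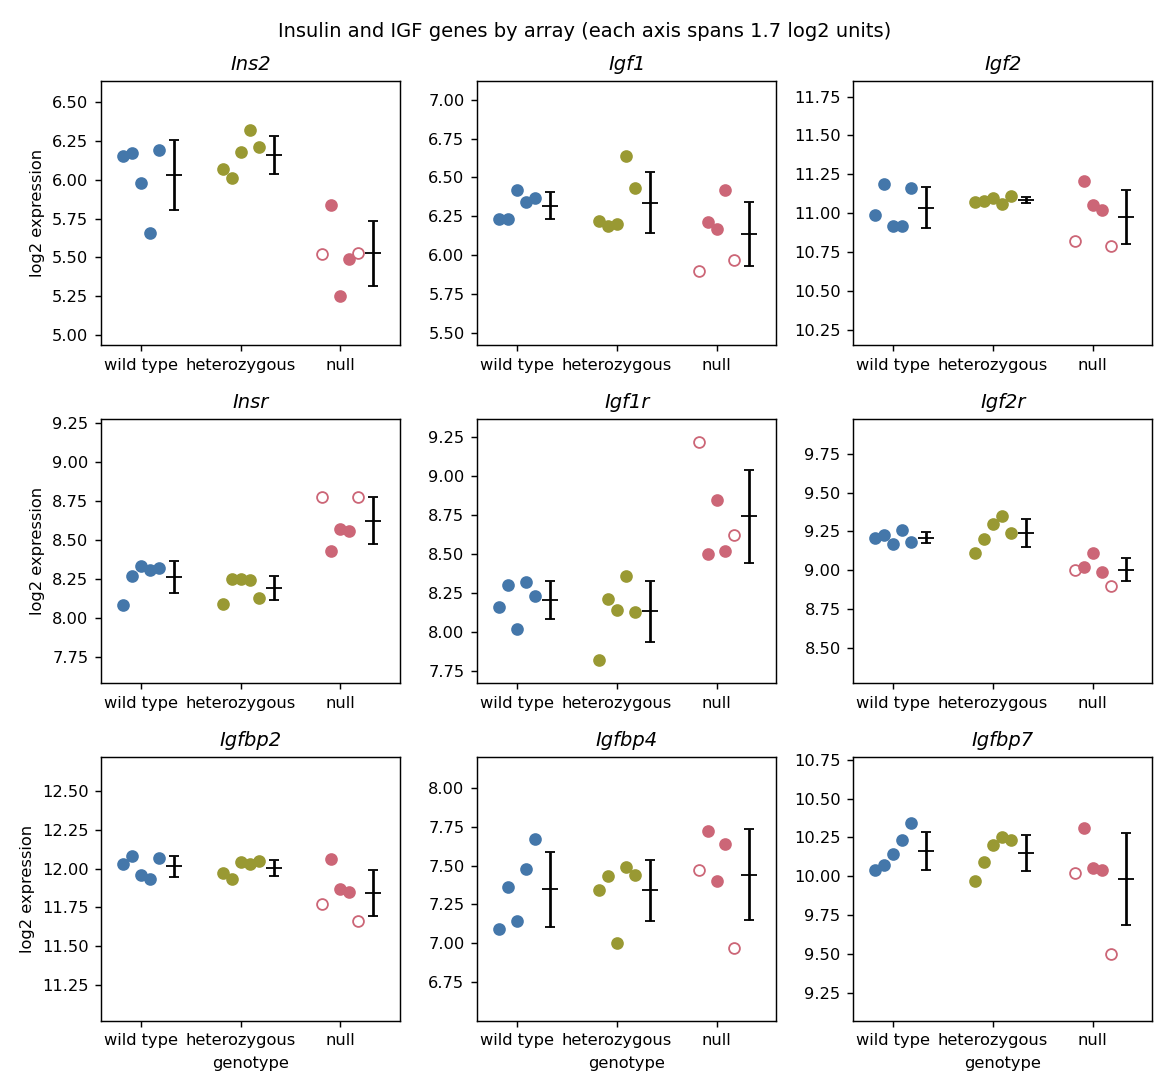
Log2 expression of the 9 measured genes (vertical axis, 1.7 log2 units in each panel) by genotype. Each point is 1 array, open points are null arrays 1 and 5, and the black bar is the mean with its SD (n = 5). All null arrays lie above all other arrays for Insr and Igf1r, and the Ins2 points of null mice lie at 5.84 or below.

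Some markers of stroma and vessels also differed in null mice. Of 8 stromal and fibroblast markers 3 rose (Dcn, Fbln1 and Pdgfra), 1 fell (Ogn) and 4 were not called against wild type. Lum, Col1a1, Col1a2 and Col3a1 averaged 7.20, 7.57, 8.62 and 6.72 in wild-type arrays. In null arrays they averaged 7.12, 7.59, 8.76 and 6.84, none called. The summed linear signal of all 8 ran from 2454 to 3015 in null arrays. It ran from 1797 to 2386 in wild-type and 1873 to 2411 in heterozygous arrays, without overlap with null arrays. Of 5 endothelial markers tested 2 rose (Kdr and Cdh5); the summed signal of 7 measured ran from 389 to 579 in null, 333 to 458 in wild-type and 348 to 385 in heterozygous arrays. Leptomeningeal markers, of a tissue that also makes IGF2, had 0 of 5 called, with sums of 1540 to 2350 in null and 1769 to 2151 in wild-type arrays; Alx4 never exceeded the filter. Slc13a4, at 10.27 to 10.75, made up most of that sum, which therefore says little about the other leptomeningeal markers. In others of these markers wild-type array 5 and null array 4 stood apart, as in Slc6a13, at 7.87 and 7.90 there and at most 6.92 elsewhere. Ins2, Insr and Igf1r stayed called when either array was left out. Among pericyte and smooth muscle markers 0 of 3 were called, among macrophage markers 0 of 3, neuron markers 0 of 5, oligodendrocyte markers 0 of 5, astrocyte markers 0 of 5 and erythroid markers 0 of 1, and 1 of 3 ependymal markers rose (Ccdc153). The 5 astrocyte markers all differed upward, by 0.20 to 0.57 (median 0.48), with summed signals of 921 to 1602 in null and 830 to 1021 in wild-type arrays. The 5 neuron markers tested had a median of -0.39 (-0.69 to 0.02), with sums of 244 to 422 in null and 373 to 418 in wild-type arrays. At limma's unadjusted p under 0.05 the counts of these lists without a call were 0, except for 2 astrocyte markers. Of all 10109 tested genes 2429 were under that value. The part of any of these markers in the differences of the receptors and of Ins2 was not tested.

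Igf1r, the receptor for IGF1 and IGF2, was higher in all 5 null arrays than in any other array. It read 8.16, 8.30, 8.02, 8.32 and 8.23 in wild-type arrays 1 to 5. Heterozygous arrays read 7.82, 8.21, 8.14, 8.36 and 8.13, and null arrays 9.22, 8.5, 8.85, 8.52 and 8.62. The lowest null array, array 2, stood 0.18 above the highest wild-type array and 0.14 above the highest heterozygous array, and null array 1 was the highest of all. The mean rose from 8.21 ± 0.122 in wild-type to 8.74 ± 0.301 in null mice (SD, n = 5 each), or 1.45-fold (log2 difference 0.54, SE 0.122, limma adjusted p = 0.0136). An exact two-sided permutation test, which can give no value below 0.00794 with 5 arrays against 5, gave p = 0.00794. Against heterozygous mice the difference was 0.61 (limma adjusted p = 0.00815). Without null arrays 1 and 5 the rise over wild type was 0.42 (adjusted p = 0.0489), and with Xist signal as a covariate 0.44, which was not called (adjusted p = 0.0814).

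Insr, the insulin receptor, also separated the null arrays from all others. Wild-type arrays 1 to 5 read 8.08, 8.27, 8.33, 8.31 and 8.32. Heterozygous arrays read 8.09, 8.25, 8.25, 8.24 and 8.13, and null arrays 8.78, 8.43, 8.57, 8.56 and 8.78. The highest values were those of null arrays 1 and 5, which were equal, and null array 2 was again the lowest of its group. The mean rose from 8.26 ± 0.104 to 8.62 ± 0.153 (SD, n = 5 each), or 1.285-fold. On the log2 scale this is 0.36 (SE 0.0734), with a limma adjusted p = 0.00697 and an exact permutation p = 0.00794. Against heterozygous mice the rise was 0.43 (limma adjusted p = 0.00302).

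Insr had a further probe set of lower signal, which was not used to choose or test the gene. It read between 7.30 and 7.39 in wild-type, 7.10 and 7.42 in heterozygous and 7.42 and 8.03 in null arrays. Its null minus wild-type difference was 0.31 (exact permutation p = 0.00794), and against heterozygous mice it was 0.39 (exact permutation p = 0.0159). Both probe sets of the receptor were thus higher in null mice, on the same 15 arrays. Without null arrays 1 and 5 the difference of the main probe set was 0.26 and missed the threshold (limma adjusted p = 0.0542), but it stayed called against heterozygous mice (0.33, adjusted p = 0.0217).

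Igf2r, the receptor that removes IGF2 and carries lysosomal enzymes, was lower in null mice. Wild-type arrays 1 to 5 read 9.21, 9.23, 9.17, 9.26 and 9.18. Heterozygous arrays read 9.11, 9.20, 9.30, 9.35 and 9.24, and null arrays 9.0, 9.02, 9.11, 8.99 and 8.90. All null arrays lay below all wild-type arrays, by 0.06 at the nearest, and null array 3 equalled the lowest heterozygous array. The mean fell from 9.21 ± 0.0367 to 9.004 ± 0.0750 (SD, n = 5 each), which is 86.7% of wild type. The difference of -0.21 (SE 0.056) had a limma adjusted p = 0.0323 and an exact permutation p = 0.00794. It stayed called in 15 of 28 alternative settings. Leaving out any of wild-type arrays 1 to 4 or of null arrays 1, 4 and 5 ended the call (-0.22 to -0.18, adjusted p between 0.054 and 0.0753), as did leaving out null arrays 1 and 5 together (-0.17, adjusted p = 0.143). Against heterozygous mice the difference was -0.24 (limma adjusted p = 0.0179), and it was lost without heterozygous array 3 (-0.22, adjusted p = 0.0502) and without null arrays 1 and 5 (-0.20, adjusted p = 0.0907).

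**Figure D2:**
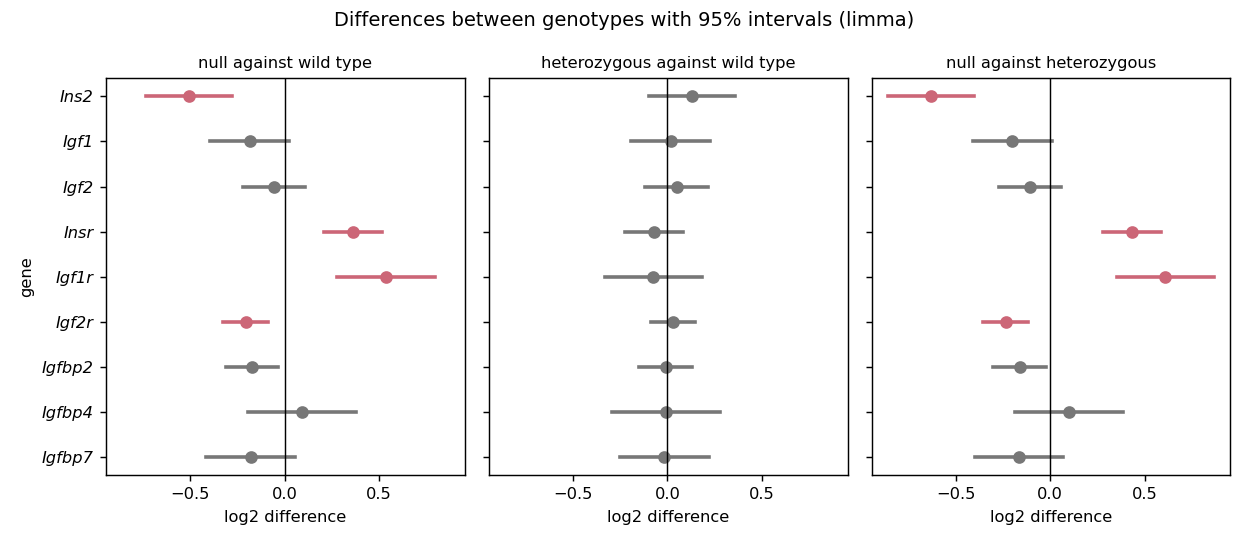
Log2 difference (horizontal axis) of each gene in the comparisons named above the panels. Points are differences of means of 5 arrays, lines are 95% limma intervals, and red marks adjusted p under 0.05. Ins2 and Igf2r lie to the left of 0 and Insr and Igf1r to the right wherever null mice are compared, and every heterozygous against wild-type interval spans 0.

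The upstream sequence of the receptors that differed is shown because these genes moved in opposite directions in the same arrays. That of Irs2, the adaptor of both kinase receptors, is shown as well. Irs2 rose with Insr and Igf1r against wild type but, unlike them, was not called against heterozygous mice. Sequences are the 250 bases before the annotated start, from RefSeq on GRCm38.p6, on the strand of the gene. Windows were held for 9 of 11 genes looked up (the 10 genes and Irs2); Ins2 and Insr had none. Capitals mark the motifs searched on both strands, the GC box, the E-box, the insulin response element, the forkhead motif and the TATA box.
Igf1r: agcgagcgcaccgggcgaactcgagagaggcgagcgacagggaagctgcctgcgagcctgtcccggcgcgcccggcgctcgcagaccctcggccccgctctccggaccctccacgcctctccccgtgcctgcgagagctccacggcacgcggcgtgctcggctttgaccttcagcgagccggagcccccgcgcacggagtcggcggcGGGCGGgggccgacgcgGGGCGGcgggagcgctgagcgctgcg
Irs2: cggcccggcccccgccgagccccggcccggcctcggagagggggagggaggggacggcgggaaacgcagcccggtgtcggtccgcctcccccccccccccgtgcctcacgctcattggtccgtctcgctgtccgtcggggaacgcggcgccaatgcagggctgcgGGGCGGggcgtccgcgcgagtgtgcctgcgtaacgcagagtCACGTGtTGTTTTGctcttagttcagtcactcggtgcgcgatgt
Igf2r: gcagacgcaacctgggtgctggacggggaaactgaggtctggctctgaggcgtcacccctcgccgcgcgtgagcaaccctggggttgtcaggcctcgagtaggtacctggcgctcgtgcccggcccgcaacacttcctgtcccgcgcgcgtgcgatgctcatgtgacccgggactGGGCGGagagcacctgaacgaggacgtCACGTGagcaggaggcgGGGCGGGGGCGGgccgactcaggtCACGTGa
They lie at chr7:67952007-67952256 on the plus strand (Igf1r), at chr8:11008930-11009179 on the minus strand (Irs2) and at chr17:12769707-12769956 on the minus strand (Igf2r).

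All are rich in G and C, with 77.6% in Igf1r, 72.8% in Irs2 and 69.2% in Igf2r against a median of 52.4% over 32851 windows of that length. The GC box was searched as GGGCGG. The Igf1r window held 2 of these, the Irs2 window 1 and the Igf2r window 3, of which 2 are directly joined; 32.7% of all windows hold at least 1. The E-box, searched as CACGTG, was found in Irs2, where it begins 44 bases before the start, and at 2 places in Igf2r, beginning 48 and 7 bases before the start, and in 6.02% of all windows. Irs2 alone of these genes held the insulin response element, searched as TGTTTTG, beginning 37 bases before the start and separated from the E-box by a single base, and 5.56% of all windows hold it. No match to the forkhead motif, searched as TGTTTAC and held by 3.17% of windows, lay in these windows. The same was true of the TATA box, searched as TATAAA and held by 12.4%. A match describes letters only; whether a factor binds there was not measured.

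Among the ligands, Ins2, which encodes 1 of the insulins of the mouse, was lower in null mice. Wild-type arrays 1 to 5 read 6.15, 6.17, 5.98, 5.66 and 6.19. Heterozygous arrays read 6.07, 6.01, 6.18, 6.32 and 6.21, and null arrays 5.52, 5.84, 5.25, 5.49 and 5.53. All null arrays lay below all heterozygous arrays, by 0.17 at the nearest. Against wild type, null array 2 overlapped with wild-type array 4, the lowest of its group. The mean fell from 6.03 ± 0.223 to 5.53 ± 0.210 (SD, n = 5 each), which is 70.5% of wild type. The difference of -0.50 (SE 0.108) had a limma adjusted p = 0.00991 and an exact permutation p = 0.0159. The values are close to the filter of 5.31, and null array 3 lay below it. Against heterozygous mice Ins2 was at 64.5% (-0.63, limma adjusted p = 0.0031; exact permutation p = 0.00794). Without null arrays 1 and 5 these differences were -0.50 (adjusted p = 0.0453) and -0.63 (adjusted p = 0.0188).

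Igf2, the fetal growth factor made by this tissue, was not called. It read between 10.92 and 11.19 in wild-type, 11.06 and 11.11 in heterozygous and 10.79 and 11.21 in null arrays. The null minus wild-type difference was -0.06 (95% interval -0.22 to 0.11, limma adjusted p = 0.700). The lowest of all 15 arrays were null arrays 1 and 5, at 10.82 and 10.79, while null array 2 was the highest. Without null arrays 1 and 5 the sign turned (0.057, adjusted p = 0.718). Heterozygous arrays varied least, with an SD of 0.0207 against 0.131 in wild-type and 0.174 in null mice.

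Igf1, the ligand named for its receptor Igf1r, read between 6.23 and 6.42 in wild-type, 6.19 and 6.64 in heterozygous and 5.90 and 6.42 in null arrays. Its difference between null and wild-type mice was -0.18 (95% interval -0.39 to 0.02, limma adjusted p = 0.271). Here too null arrays 1 and 5 were the lowest of all, at 5.90 and 5.97, and without them the difference was -0.051 (adjusted p = 0.820). Null array 4 equalled the highest wild-type array.

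No binding protein was called in any comparison. Igfbp2, the main IGF binding protein of cerebrospinal fluid, read between 11.93 and 12.08 in wild-type, 11.93 and 12.05 in heterozygous and 11.66 and 12.06 in null arrays (null minus wild type -0.17, 95% interval -0.31 to -0.03, limma adjusted p = 0.119; exact permutation p = 0.0476). Of the null arrays 4 were lower than every wild-type array, and null array 2 lay among the wild-type values. Without null array 2 the difference was -0.23 from wild type (adjusted p = 0.0163) and -0.22 from heterozygous mice (adjusted p = 0.0177), both called. Without null arrays 1 and 5, whose values of 11.77 and 11.66 were the lowest, it was -0.087 (adjusted p = 0.494).

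Igfbp4, which binds IGFs until it is cleaved by the protease PAPP-A, read between 7.09 and 7.67 in wild-type, 7.0 and 7.49 in heterozygous and 6.97 and 7.72 in null arrays. The genotypes overlapped (null minus wild type 0.09, 95% interval -0.19 to 0.38, limma adjusted p = 0.728). The difference was 0.24 without null arrays 1 and 5 (adjusted p = 0.341), and 0.25 from heterozygous mice (adjusted p = 0.325). Igfbp7, a matrix and vessel-associated relative of low IGF affinity, read between 10.04 and 10.34 in wild-type, 9.97 and 10.25 in heterozygous and 9.5 and 10.31 in null arrays (-0.18, 95% interval -0.41 to 0.05, limma adjusted p = 0.342). Its lowest value was that of null array 5, and without null arrays 1 and 5 the difference was -0.031 (adjusted p = 0.883).

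In heterozygous mice, with Add1 at 7.76 ± 0.0996 (SD, n = 5), no member was called. Their differences from wild type were -0.07 for Insr, -0.07 for Igf1r, 0.03 for Igf2r and 0.13 for Ins2, each opposite in sign to that of null mice, with limma adjusted p = 0.994 for all. The 95% intervals ran from -0.22 to 0.08 for Insr, from -0.33 to 0.18 for Igf1r, from -0.09 to 0.15 for Igf2r and from -0.10 to 0.36 for Ins2. For Insr and Igf1r these intervals end below the differences of 0.36 and 0.54 seen in null mice. For Igf2r and Ins2 they lie above the null differences of -0.21 and -0.50. Null and heterozygous mice were set against the same wild-type arrays. The sign of Igf1r turned without heterozygous array 1 (0.004) and that of Igf2r after median centring (-0.010).

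The samples also carry a number before a dot, whose meaning is not given; it ran up to 451 in wild-type and 460 in heterozygous mice and from 444 to 483 in null mice. With this number as a linear covariate Igf1r stayed called against wild type (0.70, limma adjusted p = 0.0491), and Ins2 (-0.54, adjusted p = 0.092), Insr (0.36, adjusted p = 0.0991) and Igf2r (-0.18, adjusted p = 0.274) were not. Against heterozygous mice Igf1r (0.76) and Ins2 (-0.67) stayed called with it, and Insr (0.43, adjusted p = 0.0526) and Igf2r (-0.21, adjusted p = 0.193) did not. As a random block, with a correlation of 0.033 within numbers, it changed none of the 4 calls. No null array shared a number with a wild-type array. The block therefore cannot take up a trend in the number that runs along with genotype. A null and another mouse shared a number only in 460, where null array 2 differed from heterozygous array 5 by 0.37 in Igf1r, 0.30 in Insr, -0.37 in Ins2 and -0.22 in Igf2r. These are differences of single animals with no test, in the direction of the group differences.

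Further genes of the pathway were taken by role, 71 in all, of which 66 were measured and 51 passed the filter. Against wild type 2 rose (Irs2 and Cited2) and 1 fell (Pik3r3), or 5.88% against the 7.72% of all genes; their median difference was 0.04. Against heterozygous mice limma called 0 of the 51, with 13 at an unadjusted p under 0.05, and between heterozygous and wild-type mice 0, with 2. Of these 51 genes 10 had an unadjusted p under 0.05 against wild type. Over all 10109 tested genes 2429 were under that value between null and wild type. Between null and heterozygous 2605 were, and between heterozygous and wild type 381.

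Among 9 receptor substrates and adaptors 1 rose and 8 were not called. Irs2, the insulin receptor substrate, rose from 6.02 ± 0.107 to 6.32 ± 0.101 (SD, n = 5 each), or 1.23-fold (0.30, SE 0.0719, limma adjusted p = 0.0183). Its wild-type arrays 1 to 5 read 6.14, 6.11, 5.88, 5.99 and 5.97, its heterozygous arrays 6.14, 6.19, 6.14, 6.12 and 5.87, and its null arrays 6.49, 6.28, 6.27, 6.31 and 6.23. All null arrays stood above all other arrays. Of all tested genes 3.45% were higher without overlap against wild type and 3.03% against heterozygous mice. Between null and heterozygous mice Irs2 was not called. Its call against wild type was lost without wild-type array 3 (0.26, adjusted p = 0.0554), null array 1 (0.25, adjusted p = 0.0548), or null arrays 1 and 5 (0.27, adjusted p = 0.0678). Irs2 also lost this call with Xist signal as a covariate (0.28, adjusted p = 0.0779). With the label number as a covariate its difference was 0.51 (adjusted p = 0.00579). Irs1, its relative, differed by 0.27 (adjusted p = 0.111), and it was called without null array 5 (0.36, adjusted p = 0.0192) and without null arrays 1 and 5 (0.42, adjusted p = 0.0168). Grb14, an inhibitor of the insulin receptor, differed by -0.15 (adjusted p = 0.141), and the adaptor Shc1 by -0.11 (adjusted p = 0.383).

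In the PI3-kinase, AKT, mTOR and FOXO arm 1 of 19 genes fell and 0 rose. Pik3r3, a regulatory subunit of PI3-kinase, read 8.06, 7.86, 7.98, 7.81 and 8.07 in wild-type arrays 1 to 5 and 7.36, 7.95, 7.61, 7.68 and 7.48 in null arrays, where array 2 overlapped with wild type (-0.34, SE 0.0995, limma adjusted p = 0.0452). This call stood in 11 of 28 alternative settings; it was lost without null array 1, 3, 4 or 5, wild-type array 1, 2, 3 or 5, or heterozygous array 2, 3 or 4 (-0.36 to -0.28, adjusted p up to 0.129). Its difference was -0.21 without null arrays 1 and 5 together (adjusted p = 0.261). The transcription factors Foxo3 and Foxo4 differed by 0.28 (adjusted p = 0.0648) and 0.22 (adjusted p = 0.0958), and the kinase Gsk3a by -0.17 (adjusted p = 0.192). Foxo3 was called without null array 4 (0.34) or 5 (0.31) and with the label number as a covariate (0.47), and Foxo4 without null array 2 (0.26). Foxo3 and Foxo4 differed by 0.22 and 0.15 without null arrays 1 and 5, neither called.

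Of 11 genes taken here as FOXO targets 1 rose and 10 were not called. Cited2, a transcriptional co-regulator, read between 6.95 and 7.16 in wild-type, 6.89 and 7.38 in heterozygous and 7.22 and 7.48 in null arrays. Null and heterozygous arrays overlapped, and Cited2 was not called between them. It was called between null and wild type (0.30, SE 0.0803, limma adjusted p = 0.0322). Leaving out any of wild-type arrays 1 to 3 or of null arrays 1, 3 and 4 ended the call, with differences of 0.26 to 0.29 and adjusted p between 0.0541 and 0.092. It was not called without null arrays 1 and 5 either (0.29, adjusted p = 0.0944), nor with Xist signal (0.29) or the label number (0.37) as a covariate. Pck2, the mitochondrial PEP carboxykinase, differed by 0.14, and the transcription factors Klf15 and Bcl6 by 0.24 and 0.25, none of them called (adjusted p 0.283 to 0.341). Their differences without null arrays 1 and 5 were 0.074, 0.067 and 0.022; with the label number as a covariate they were 0.32, 0.71 and 0.59, and Klf15 was then called (adjusted p = 0.0366).

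Genes that handle the ligands were not called. Of the other binding proteins and their proteases 5 of 11 passed the filter, among them Igfbpl1 (0.31, adjusted p = 0.0889), Igfbp3 (0.31, adjusted p = 0.480), the main carrier of IGFs in blood, and Igfbp5 (0.17, adjusted p = 0.505). In Igfbp3 the value of null array 1 was 7.54, against at most 6.89 in the other arrays. Among 5 genes of precursor processing and degradation were Cpe, the carboxypeptidase that trims prohormones (0.28, adjusted p = 0.106), the insulin-degrading enzyme Ide (0.27, adjusted p = 0.255) and the convertase Furin (0.25, adjusted p = 0.257). Without null array 2 Ide was called (0.41, adjusted p = 0.0168), and without null arrays 1 and 5 Cpe was called (0.41, adjusted p = 0.0463). Of the regulators of Igf2 transcripts, Plag1 differed by 0.20 (adjusted p = 0.376) and Plagl1 by -0.11 (adjusted p = 0.442).

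**Figure D3:**
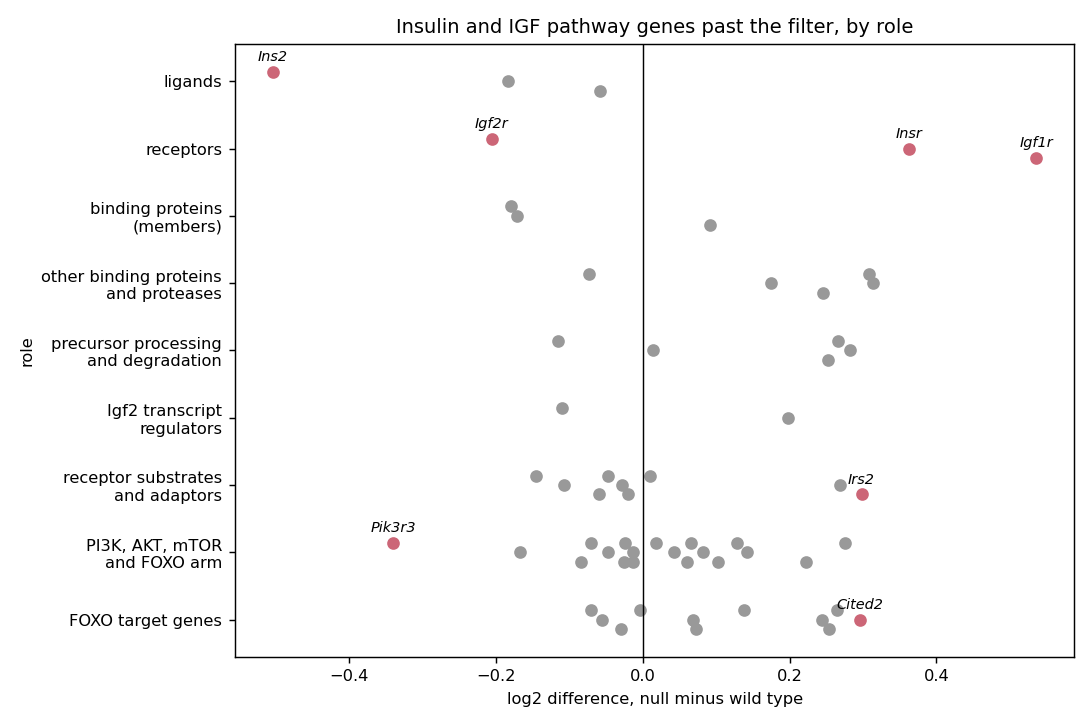
Null minus wild-type log2 difference (horizontal axis) of every member and pathway gene past the filter, by role (vertical axis). Red points with names are genes with a limma adjusted p under 0.05 and grey points are the others; vertical offsets within a role only separate points. The called genes are the receptors, Ins2, Irs2, Pik3r3 and Cited2.

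The genes whose array values ran most like a member were sought among tested genes with an approved name and a range of at least 0.5 times that of the member. Likeness is the mean absolute difference over the 15 arrays after each gene was centred on its own mean. For Igf1r, with a range of 1.40, the nearest of 1829 genes were Slc8b1, a mitochondrial sodium-calcium exchanger (0.0889), the scaffold protein gene Iqgap2 (0.0924) and the matrix protein gene Fbln1, which is among the stromal markers (0.0982), where the median gene stood at 0.286. For Ins2, with a range of 1.07, the nearest of 4000 were the zinc importer Slc39a4 (0.0891), the stress kinase Map3k5 (0.118) and Nipal2 (0.120), with a median of 0.322. Igfbp7, with a range of 0.84, lay nearest to Stk10 (0.0723), Bcam (0.0768) and Arhgef19 (0.0783), with a median of 0.180 over 6602 genes. All arrays and the genotype difference enter this measure.

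**Figure D4:**
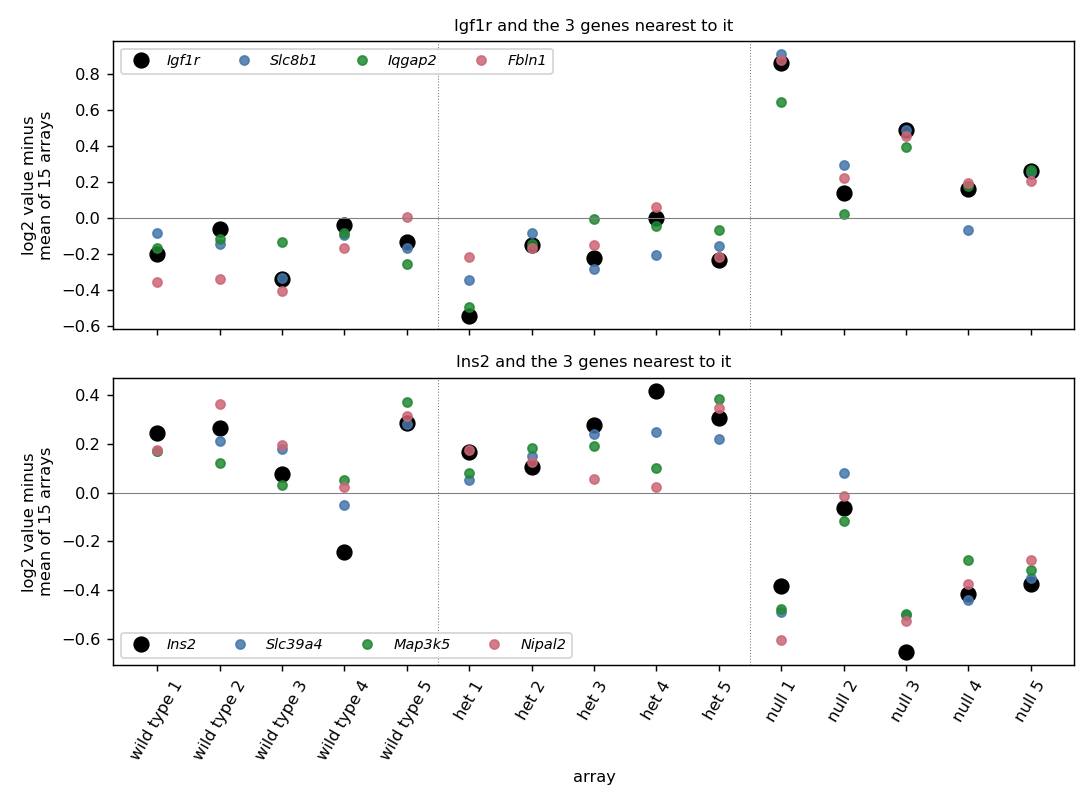
Log2 value minus the gene's mean over the 15 arrays (vertical axis) for Igf1r (top) and Ins2 (bottom) with their 3 nearest genes, by array (horizontal axis; dotted lines part the genotypes). Null array 1 is highest for Igf1r, Slc8b1, Iqgap2 and Fbln1, and null array 2 is the highest null array for Ins2 and its 3 nearest genes.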

How the data were processed

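RNA of 15 choroid plexus samples was measured on single-colour Affymetrix arrays; per the labels' protocols, 250 ng RNA was biotin-labelled. The deposited log2 values were made with Affymetrix Expression Console 1.1 and RMA, per the submitters' processing notes; RMA corrects background, normalizes quantiles between arrays and summarises probes, which removes differences in total signal. The log base was read from the values (1.57 to 13.89). No source used here names the build.

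Of 35556 probe sets 21789 had 1 gene symbol in the platform annotation, 1621 several and 12146 none, and 21698 matched the reference gene table. Python 3.11.15 joined the tables. limma 3.58.1 in R 4.3.3 (lmFit, eBayes) fitted 3 genotypes with no covariate. The fit was tested on simulated data. Exact permutation tests ran over 252 regroupings. No arrays were identical. The number of arrays limits the precision.

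Named genes were the 10 members, Add1, every called pathway gene and up to 3 more per role by p, and the 3 genes most like each of the 3 members of widest range. Members, lists and alternatives were chosen with earlier results of these data known. Replicate numbers were not taken to pair mice. Alternatives covered filter, probe sets, normalization, samples, variance model, label number, Xist signal, replicate block and single arrays.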

Additional observations from a re-analysis of the deposited data

Results flagged for a closer look

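Insr in wild-type array 1 read 8.08, away from the other 4 wild-type arrays, of which the nearest read 8.27; its gap was 0.76 of the range of the group, above the critical value of 0.71 for 5 samples. Of 27 sets of 5 arrays looked at (9 genes in 3 genotypes) this was the only one, and chance flags about 1 in 20. Without this array the rise of Insr in null mice was 0.32 (limma adjusted p = 0.0246).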

How the results depend on the processing

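Against wild type 4 members were called, and 3 to 5 when 1 array was left out, 2 without null arrays 1 and 5 or with Xist signal as a covariate, and 1 with a linear term for the label number. Against heterozygous mice 4 were called, 3 to 5 without 1 array and 2 with the label number. The other settings gave 3 to 5 members against wild type and 3 or 4 against heterozygous mice, and heterozygous against wild type gave 0 throughout. Ins2, Insr and Igf1r stayed called against both other genotypes when any 1 array was left out, with adjusted p against wild type up to 0.0328, 0.0246 and 0.0423. Ins2 fails the stricter filter and has no value there. The replicate numbers of the titles correlated with no pairing (4 of 15 pairs over 0.1, 1 of 15 arrays closest to its own number); with a replicate block 3 members and 520 genes were called against wild type, Igf2r being lost (adjusted p = 0.0616), and 4 members and 546 genes against heterozygous mice.

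Over all genes, 780 were called between null and wild type: 458 in a fit of only these genotypes, 1315 with array weights, 259 with the label number, 401 without null arrays 1 and 5, 316 with Xist signal, and 392 (without wild-type array 1) to 1420 (without null array 2) without 1 array. Between null and heterozygous 791 were called: 500 with no filter, 342 in a fit of only these genotypes, 1296 with array weights, 199 with the label number, 332 without null arrays 1 and 5, 236 with Xist signal, and 356 (without null array 1) to 1812 (without null array 2). Between heterozygous and wild type 1 gene was called with array weights, without null arrays 1 and 5 or with Xist signal, and 0 to 1 without 1 array. The causes were not tested.

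Signs turned only in differences that were not called. Igf2 turned in null mice without null arrays 1 and 5 (0.057 from wild type, 0.0093 from heterozygous) and with Xist signal (0.052 from wild type), and Igfbp5 with the label number (-0.11). From wild type, heterozygous mice differed by -0.022 in Igf1 and -0.01 in Igf2r after median centring, and by 0.0071 in Igfbp7 after repeated quantile normalization and 0.011 with array weights. Leaving out 1 array moved these differences from -0.058 to 0.0545 for Igf1, -0.13 to 0.004 for Igf1r, -0.031 to 0.0085 for Igfbp2, -0.0725 to 0.077 for Igfbp4 and -0.047 to 0.0285 for Igfbp7.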

Other observations

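Ins2 and Igf2 are neighbours in the gene order of GRCm38.p6, with the microRNA gene Mir483 inside Igf2. Next to the fall of Ins2, the probe set of Mir483 differed by -0.05 between null and wild-type mice (limma adjusted p = 0.741), Igf2 by -0.06, and Mrpl23, a mitochondrial ribosomal protein gene on the far side of Igf2, by -0.13 (adjusted p = 0.252). Th, the tyrosine hydroxylase gene and the next gene with an approved name on the other side of Ins2, had a mean of 4.37 and did not pass the filter. The gene model Gm6471, between Ins2 and Th, had a mean of 5.12 and did not pass it either. Its null minus wild-type difference was 0.33, opposite in sign to that of Ins2, and was not tested. These neighbours were chosen after their values were seen.

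In the null mice the arrays did not rank alike for all members. Null array 2 was the lowest of its group for Insr and Igf1r and the highest for Ins2, Igf2, Igfbp2, Igfbp4 and Igfbp7.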
